A study of Rattus norvegicus with 32 samples.

Results

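The genes described here are 10 peptides, receptors and binding proteins of the hypothalamic-pituitary-adrenal axis and of the magnocellular system. They are the peptide genes Crh, Ucn, Avp, Oxt and Pomc, the receptor genes Crhr1, Crhr2, Avpr1a and Oxtr, and the binding protein gene Crhbp. They were taken by symbol from a list, and all 10 were found among the 22587 genes of the deposited table. Their levels were measured by mRNA sequencing in brainstem and hypothalamus of Wistar Kyoto rats, a normotensive inbred strain, at 13 weeks of age. The rats carried a sham operation or had lost both adrenal glands (total bilateral adrenalectomy, ADREX), and breathed filtered air or 0.8 ppm ozone, an oxidant gas, for 4 h, with tissue taken right afterwards. With 2 tissues, 2 operations and 2 exposures there were 8 groups of 4 libraries, 32 in all. A library is named below by its group and its number in the labels. ADREX removes the adrenal source of corticosterone and of circulating adrenaline together, and any hormone replacement is not stated in the sources used here.

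Corticotropin-releasing hormone, encoded by Crh, is made by parvocellular neurons of the paraventricular nucleus and released to the pituitary. There it acts through CRHR1 on corticotrophs, which process the POMC precursor to adrenocorticotropic hormone and so drive adrenal corticosterone, and corticosterone feeds back on the hypothalamus and the pituitary. Vasopressin (Avp) acts beside CRH at the pituitary, and magnocellular neurons of the supraoptic and paraventricular nuclei send vasopressin and oxytocin (Oxt) to the posterior pituitary. Crh is also expressed in the pontine micturition centre and the inferior olive of the brainstem, and Pomc in neurons of the arcuate nucleus and of the nucleus of the solitary tract. Urocortin (Ucn) is a CRH-related peptide best known from the Edinger-Westphal region of the midbrain.

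Avp and Oxt are shown first by their sequence, because they lie next to each other among protein-coding genes and their levels went together over libraries, and Pomc because it had the lowest adjusted p of any treatment difference. The 250 bases before each start site are given 5′ to 3′ on the gene's strand, from RefSeq on the assembly GRCr8, which is not the build of the counted data. They lie at chr3:138248523-138248772 on the minus strand for Avp, at chr3:138235504-138235753 on the plus strand for Oxt, and at chr6:32659103-32659352 on the plus strand for Pomc. Capitals mark a core of the cAMP response element (CGTCA, or TGACG on the other strand) for Avp, a pair of nuclear receptor hexamers (AGGTCA, and TGACCT on the other strand) for Oxt, and a TATA box (TATAAA) for Pomc.
Avp: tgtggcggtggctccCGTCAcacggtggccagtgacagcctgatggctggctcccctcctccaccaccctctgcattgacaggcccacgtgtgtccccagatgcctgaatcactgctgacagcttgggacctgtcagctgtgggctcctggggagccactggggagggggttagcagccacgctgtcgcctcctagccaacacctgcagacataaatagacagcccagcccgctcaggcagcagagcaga
Oxt: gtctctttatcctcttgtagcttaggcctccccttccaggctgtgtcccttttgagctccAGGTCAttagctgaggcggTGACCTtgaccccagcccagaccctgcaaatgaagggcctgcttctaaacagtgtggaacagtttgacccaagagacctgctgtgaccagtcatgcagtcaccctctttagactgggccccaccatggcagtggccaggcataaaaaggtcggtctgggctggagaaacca
Pomc: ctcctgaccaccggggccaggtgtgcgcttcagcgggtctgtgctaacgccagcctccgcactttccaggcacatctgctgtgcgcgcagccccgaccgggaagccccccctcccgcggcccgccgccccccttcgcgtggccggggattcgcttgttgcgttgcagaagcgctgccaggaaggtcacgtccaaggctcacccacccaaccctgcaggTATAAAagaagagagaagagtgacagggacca

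Positions count back from the base before the start site, which is -1. The Avp core spans -235 to -231. The Oxt hexamers span -190 to -185 and -171 to -166, and Pomc has 1 AGGTCA, left in lower case, at -69 to -64, before its TATA box at -32 to -27. The search covered 300 bases, 250 before to 50 after the start, for the 9 members with an entry. On both strands, TGACG was found in 6 of 9 members (Crhbp, Crhr2, Ucn, Avp, Avpr1a and Oxtr) and in 21.2% of all 33469 promoters, and AGGTCA in 3 (Crhbp, Oxt and Pomc) and in 16.2%. The full element TGACGTCA, which contains TGACG, was found in Ucn alone, at -110 to -103, and in 1.83% of all. AGAACA, a hexamer bound by the glucocorticoid receptor, was found in 0 of 9 and in 20.7% of all, and TATAAA on the gene strand in 3 (Crhbp, Avpr1a and Pomc) and in 8.8%. These matches are letters in a window and are not measured binding.

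Values below are normalized counts, that is, reads per gene divided by a size factor of the library. They are not scaled to gene length, so levels are compared between libraries for 1 gene and not between genes. Total depth was 6.44 to 12.4 M reads per library, and 1 read was worth 0.623 to 1.25 normalized counts. A level is given as mean ± SD (n = 4 for a group, n = 16 for a tissue), and a difference as log2 change ± SE on the log2(value + 1) scale, which understates the change of low genes. A gene was tested when its mean over the libraries of the fit was 10 or more, and called at adjusted p under 0.05. No source used here states that each library of a group came from a separate rat, so a p-value here reflects only how far the libraries of a group spread. Bulk tissue was sequenced, so fewer cells of a type and less RNA per cell cannot be told apart.

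The labelled tissues were checked with region markers. Genes of the hypothalamus (8 in all, among them Nkx2-1, Sim1 and Hcrt) summed to 364 to 573 RPM (reads scaled to the total of the library) in the hypothalamus libraries and to 2.74 to 14.4 in the brainstem libraries. Genes of the brainstem (8, among them Hoxb5, Hoxa5 and Tph2) summed to 584 to 709 in the brainstem and to 5.80 to 23.5 in the hypothalamus. Liver transcripts, such as those of albumin and fibrinogen, exceeded 2000 RPM in 4 libraries, which are brainstem sham ozone 18 and hypothalamus sham air 2, sham ozone 18 and ADREX air 68. Without them the same number of members, 7 of 8 tested, was called between the tissues, and 0 of 100 treatment tests of the members were called (lowest limma adjusted p = 0.0858, for Crhbp). Further values without them stand beside single results below.

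**Figure D1:**
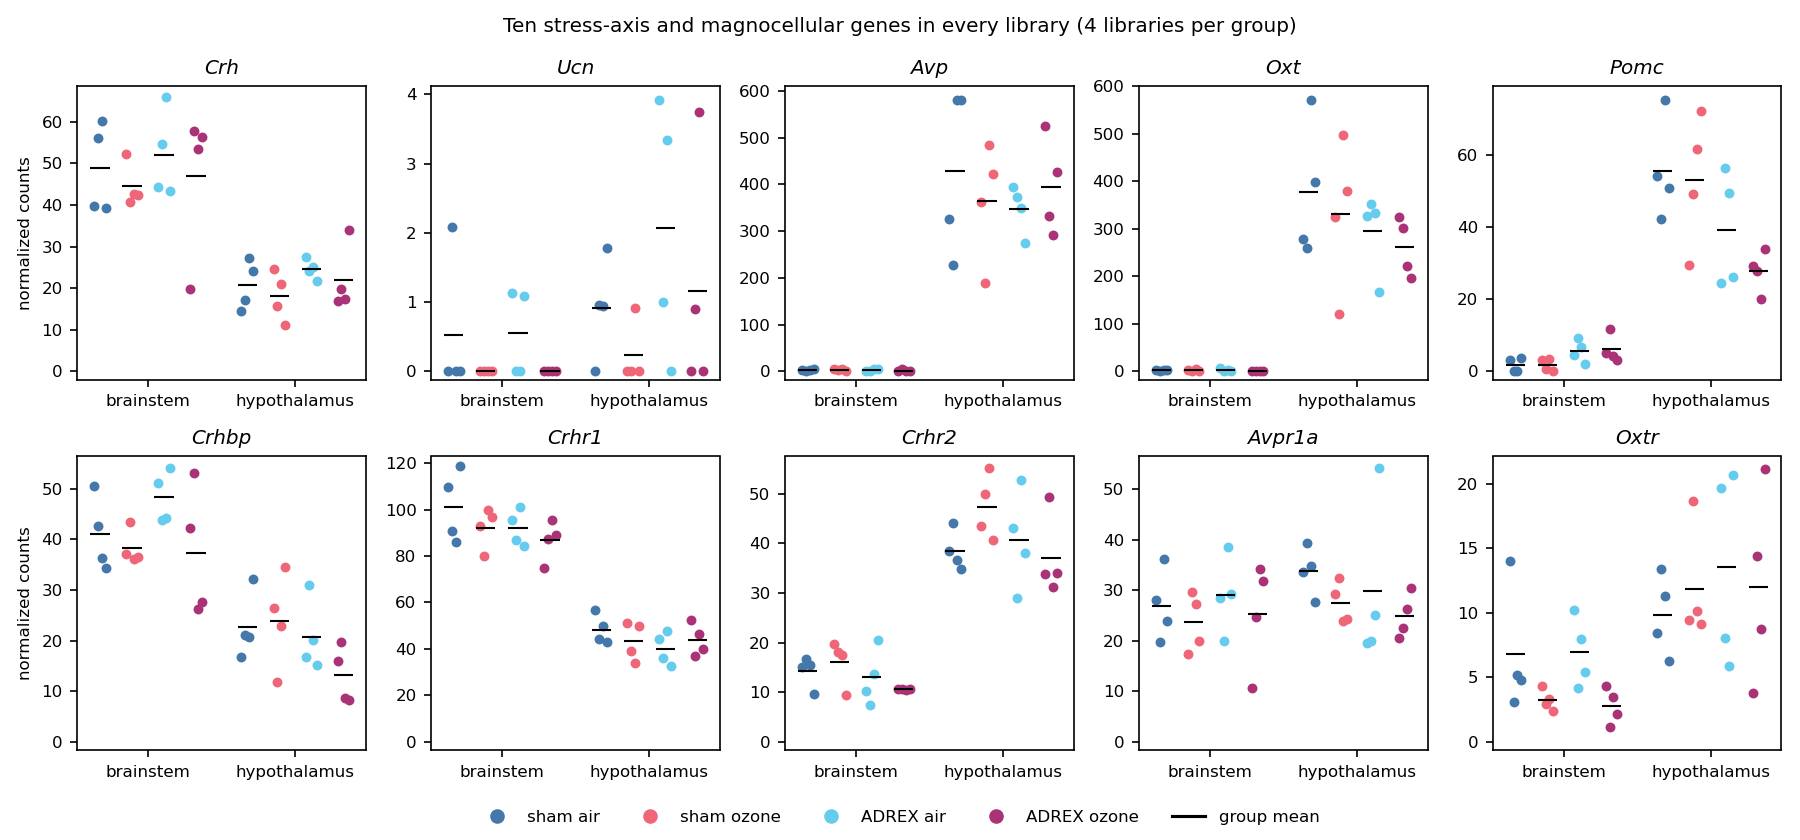
Normalized counts of the 10 genes (vertical axes, a separate scale for each gene) in all 32 libraries. Points are libraries, colours are the 4 treatments and black bars are group means. Avp, Oxt and Pomc stand far higher in the hypothalamus, Crh, Crhbp and Crhr1 higher in the brainstem, and the groups compared within a tissue overlap for every gene.

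The first comparison asked where each gene was expressed. Avp and Oxt were by far the most different between the tissues. Avp had 384 ± 116 normalized counts over the 16 hypothalamus libraries (189 to 581) and 2.43 ± 2.28 over the 16 brainstem libraries (0 to 5.90), a 158-fold ratio of means. Oxt had 316 ± 116 in the hypothalamus (119.7 to 572) and 1.80 ± 2.04 in the brainstem (0 to 6.82), a 176-fold ratio. The lowest hypothalamus library of either gene was far above the highest brainstem library. Limma's log2 difference was 7.11 ± 0.30 for Avp (adjusted p = 1.16e-18) and 7.06 ± 0.27 for Oxt (2.55e-19). Over all 16 brainstem libraries only 37 reads of Avp and 27 of Oxt were counted, so these brainstem levels carry little precision.

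Pomc, the precursor of adrenocorticotropic hormone, melanocortins and beta-endorphin, had 43.9 ± 17.3 normalized counts in the hypothalamus (20.001 to 75.3) and 3.83 ± 3.27 in the brainstem (0 to 11.8). The tissues did not overlap, and limma gave 3.47 ± 0.26 (adjusted p = 1.07e-12). The brainstem level rests on 63 reads in all. Crhr2, the receptor that prefers urocortins, was higher in the hypothalamus by 1.56 ± 0.12 (adjusted p = 5.41e-12). It had 40.9 ± 7.84 there (29.1 to 55.1) and 13.5 ± 4.12 in the brainstem (7.45 to 20.6), again without overlap.

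Crh, Crhr1 and Crhbp went the other way. Crh had 48.1 ± 11.2 normalized counts in the brainstem and 21.4 ± 5.83 in the hypothalamus, a difference of -1.14 ± 0.14 (limma adjusted p = 5.82e-08). Its ranges, 19.9 to 65.9 and 11.2 to 34.0, met only through brainstem ADREX ozone 81, at 19.9, while the other 15 brainstem libraries lay at 39.2 or above. Crhr1, the receptor through which CRH acts on corticotrophs, had 93.1 ± 10.9 in the brainstem (74.7 to 119) and 44.0 ± 7.08 in the hypothalamus (32.6 to 56.6), without overlap (-1.07 ± 0.08, adjusted p = 3.64e-13). Crhbp, which binds and sequesters CRH, had 41.3 ± 8.42 in the brainstem and 20.1 ± 7.86 in the hypothalamus, with ranges of 26.3 to 54.1 and 8.21 to 34.5 (-1.07 ± 0.15, adjusted p = 2.64e-07). The 3 genes were each about as much lower in the hypothalamus, with log2 differences from -1.14 to -1.07.

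Avpr1a, the vasopressin receptor of smooth muscle, liver and neurons, was not distinguishable between the tissues. Its level was 26.3 ± 7.44 in the brainstem and 29.0 ± 8.83 in the hypothalamus (0.15 ± 0.15, 95% interval -0.16 to 0.46, limma adjusted p = 0.427, and 0.06 without the liver-rich libraries). Oxtr, the oxytocin receptor, and Ucn were too low for the main test. Oxtr had 11.8 ± 5.56 in the hypothalamus (3.76 to 21.1) and 4.93 ± 3.28 in the brainstem (1.18 to 14.002), and without the filter limma gave 1.15 (adjusted p = 0.00012). Ucn was at 0 in 13 of 16 brainstem libraries and in 7 of 16 hypothalamus libraries, with 4 and 18 reads in all, and did not pass without the filter (0.57, adjusted p = 0.0545).

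Of the 10 genes, 8 passed the filter over 32 libraries and 7 were called between the tissues, while 54% of all 14533 genes tested were called. Avp, Oxt and Pomc had brainstem means under 10 and passed the filter through the hypothalamus, so their calls were bound to follow and the count is not read further. Marker sums of cell types differed between the tissues too. Oligodendrocyte markers summed to 31844 to 49603 RPM in the brainstem and 14384 to 20627 in the hypothalamus, and neuron markers to 3272 to 3924 and 3931 to 4439. Single neuron markers went different ways. In normalized counts, Syt1 had 4484 to 6787 in the brainstem and 14536 to 17682 in the hypothalamus. Snap25 had 14140 to 16582 and 8363 to 9862, and Rbfox3, Stmn2 and Tubb3 overlapped. The neuron sum is therefore not read as more neurons in 1 tissue. The part of cell make-up in the differences above was not tested.

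**Figure D2:**
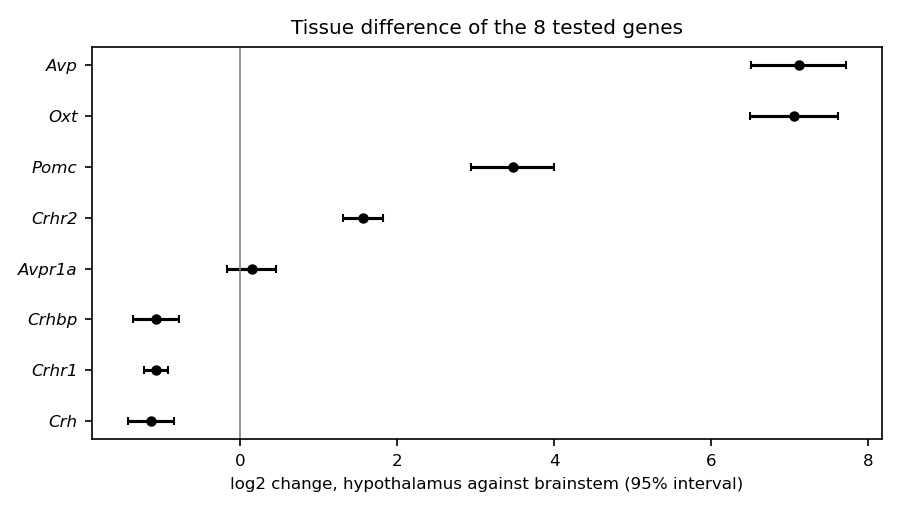
Log2 change of hypothalamus against brainstem (horizontal axis) for the 8 genes that passed the filter, over 32 libraries. Points are limma estimates and bars are 95% intervals. Avp (7.11) and Oxt (7.06) lie farthest to the right, and the intervals of Crh, Crhr1 and Crhbp lie wholly below 0.

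Genes that work with the members were read from 6 lists. Of 14 tested genes of prohormone processing and dense-core granules, 8 were higher in the hypothalamus and 3 lower (54% of all genes called in either direction). The higher ones include the convertases Pcsk1 (0.99 ± 0.07) and Pcsk2 (1.29 ± 0.07), which cleave prohormones, and Pam (0.90 ± 0.03), which amidates vasopressin and oxytocin. Of 10 tested transcription factors of neuroendocrine hypothalamus, 7 were higher and 1 lower. Sim1 (6.12 ± 0.20) and Otp (1.76 ± 0.31), which specify the neurons of the paraventricular and supraoptic nuclei, were among the 7. Of the 8 called factors, 4 (Fezf1, Nkx2-1, Otp and Sim1) had a brainstem mean under 10 and passed the filter through the hypothalamus, so their calls were bound to follow. These 4 are also on the list of region markers. The limma adjusted p of the processing genes ran from 6.07e-20 for Pam to 2.34e-13 for Pcsk1.

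Other ligands and receptors of these systems were mostly low. Of 16 listed, 6 were tested, with 1 higher in the hypothalamus and 3 lower. The melanocortin receptor Mc3r was higher by 3.44 ± 0.17 (passing the filter through the hypothalamus alone) and Mc4r lower by 0.44 on the log2 scale (-0.44 ± 0.14, limma adjusted p = 0.0105). Ucn3 had 7.35 to 12.8 normalized counts as group means in the hypothalamus and at most 2.44 in the brainstem. The group means of Ucn2 did not exceed 0.540 in either tissue. The pituitary vasopressin receptor Avpr1b had group means from 0 to 6.37, and the melanocortin antagonist Agrp from 1.32 to 6.05.

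The remaining lists hold genes of Avp and Crh regulation, corticosteroid receptors and feedback genes, and peptides of neighbouring neurons, and their counts are to be read beside the 54% of all genes called. Of 12 tested genes of Avp and Crh regulation 6 were higher and 0 lower, which is near that share, led by Rasd1, a dexamethasone-induced Ras protein (2.51 ± 0.09), while Creb3l1, a factor that drives Avp transcription, did not differ detectably (0.0041 ± 0.094, limma adjusted p = 0.976). Of 10 corticosteroid genes 4 were higher and 4 lower. Nr3c1, the glucocorticoid receptor, was higher by 0.22 ± 0.08 (adjusted p = 0.0161, and 0.106 without the liver-rich libraries), and Nr3c2, the mineralocorticoid receptor, was lower (-0.63 ± 0.09, adjusted p = 3.66e-07). Of 12 tested peptides of neighbouring neurons 11 were higher, among them Pmch (7.65 ± 0.36), Hcrt (4.74 ± 0.15) and Cck (3.12 ± 0.10), with limma adjusted p from 1.92e-21 to 2.44e-17. Of these 11, Vip had a brainstem mean under 10 and passed the filter through the hypothalamus, so its call was bound to follow. Pmch and Hcrt are also on the list of region markers.

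The second set of comparisons asked what ozone and ADREX did to the members. No member was called in any of 12 treatment contrasts within a tissue. Of 84 tests, 5 members in each of 6 brainstem contrasts and 9 in each of 6 hypothalamus contrasts, limma called 0 (adjusted p from 0.108 to 0.9998). An unadjusted p under 0.05 was seen in 3, namely Pomc in 2 contrasts and Crhbp in 1. On the recovered reads edgeR called 0 and DESeq2 called 1, Pomc. Comparisons of a tissue share groups, so their values are set side by side and are not independent.

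**Figure D3:**
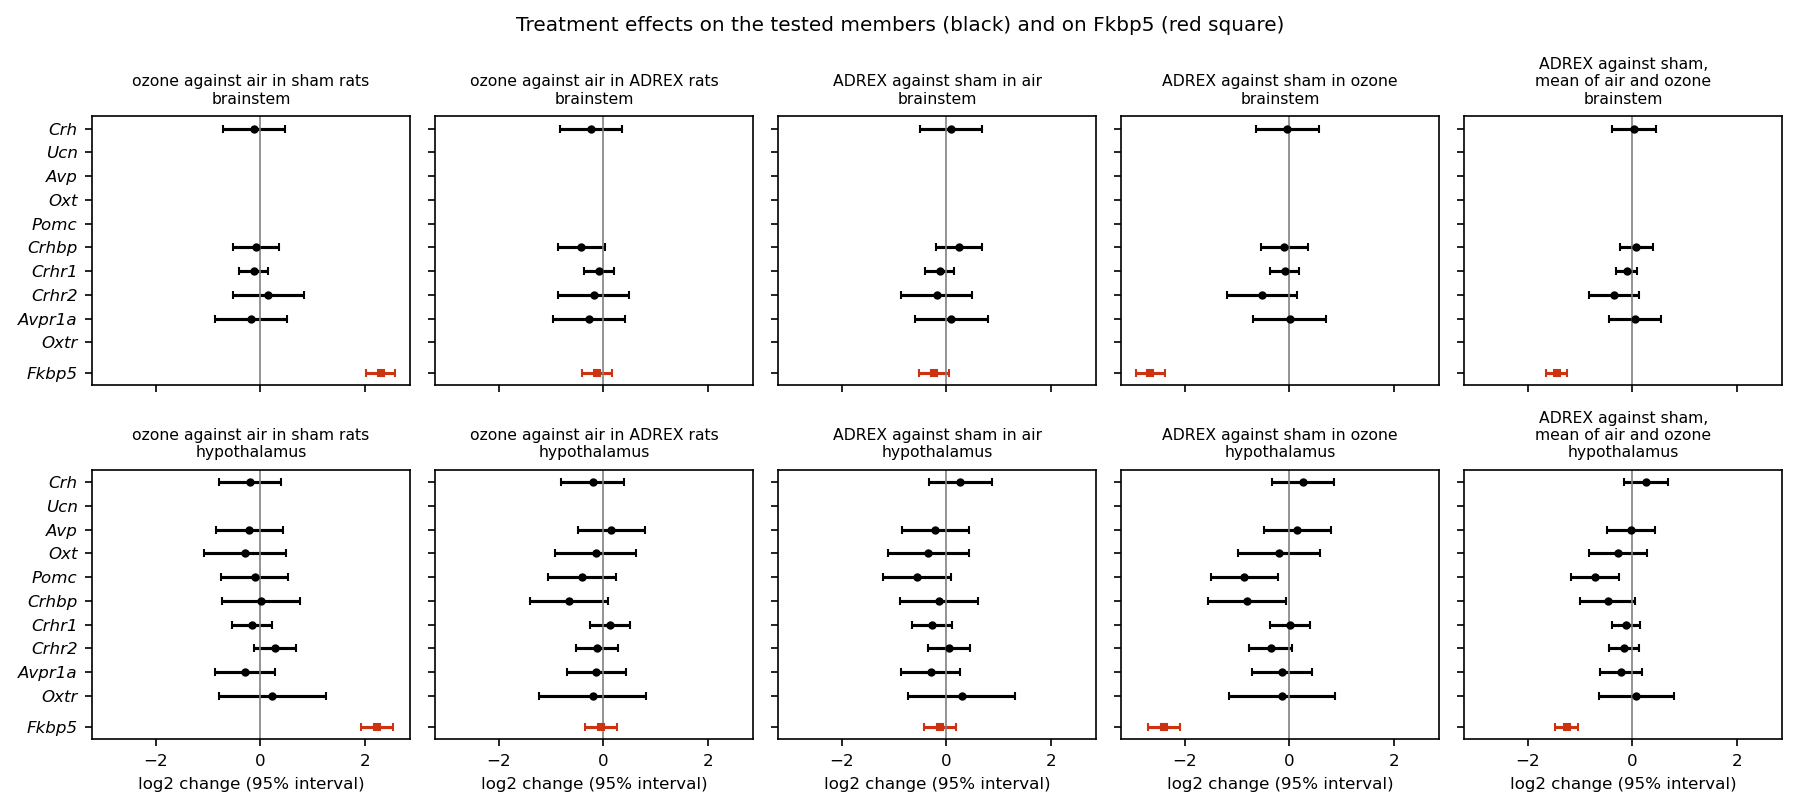
Log2 change ± 95% interval (horizontal axis) of the tested members in 5 treatment contrasts, brainstem above and hypothalamus below. Black points are members and red squares are Fkbp5. Fkbp5 lies at 2.31 and 2.23 for ozone in sham rats, while of the members only Pomc, and Crhbp in 1 contrast, have an interval that leaves out 0, and neither was called.

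In sham rats, ozone left all tested members without a call, 0 of 5 in brainstem, where 0.979% of all genes were called, and 0 of 9 in hypothalamus, where 1.59% were. In these libraries Fkbp5, a co-chaperone induced by glucocorticoids, went from 264 ± 33.9 to 1308 ± 113 normalized counts in the brainstem and from 249.9 ± 62.2 to 1162 ± 173 in the hypothalamus (2.31 ± 0.13 and 2.23 ± 0.14, limma adjusted p = 6.13e-08 and 4.47e-07). The members' changes ran from -0.18 to 0.16 in the brainstem and from -0.29 to 0.29 in the hypothalamus. All 5 brainstem intervals and 7 of 9 hypothalamus intervals lay within a log2 change of -1 to 1. The median over the members was -0.11 and -0.16, beside -0.0026 and -0.0047 over all genes tested.

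In ADREX rats, ozone again called 0 of 5 and 0 of 9 members, and 0% of all genes in either tissue. ADREX against sham in air called 0 of 5 and 0 of 9, beside 0% of all genes in the brainstem and 0.0138% in the hypothalamus. ADREX against sham in ozone called 0 of 5 and 0 of 9, beside 2.44% and 2.24%. The mean of both called 0 and 0, beside 1.58% and 1.93%, and the interaction of ozone and operation 0 and 0, beside 0.201% and 0.138%. Where limma called no gene at all, an unadjusted p under 0.05 was found for 851 genes (ozone in ADREX brainstem), 1163 (ozone in ADREX hypothalamus) and 545 (ADREX in air, brainstem). For these edgeR called 0, 0 and 0, and DESeq2 1, 0 and 16.

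No member had groups that failed to overlap in any of 10 comparisons of levels. Over all genes the shares that did not overlap in the brainstem were 7.18% (ozone in sham rats), 2.19% (ozone in ADREX rats), 3.3% (ADREX in air), 7.29% (ADREX in ozone) and 0.278% (ADREX against sham, 8 libraries each). In the hypothalamus, in the same order, they were 9.62%, 3.64%, 5.11%, 6.64% and 0.352%. Ordered by group mean, neighbouring groups overlapped in 7 of 7 pairs for Crhbp, Ucn, Avpr1a and Oxtr. For Crh, Crhr1, Crhr2, Avp, Oxt and Pomc they overlapped in 6 of 7, and the 1 gap fell between the tissues.

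Pomc in the hypothalamus had the lowest adjusted p of all treatment tests of the members. The sham air libraries had 54.1, 42.2, 75.3 and 50.8 normalized counts, and the sham ozone libraries 29.3, 49.1, 61.6 and 72.1. The ADREX air libraries had 24.5, 56.2, 49.4 and 26.1, and the ADREX ozone libraries 29.1, 27.9, 20.001 and 34.0. The group means were 55.6 ± 14.04, 53.0 ± 18.4, 39.0 ± 16.1 and 27.7 ± 5.80. Every ADREX ozone library was below every sham air library, but sham ozone 17, at 29.3, lay inside the ADREX ozone range, so sham and ADREX overlapped within each exposure.

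Over both exposures the ADREX difference of Pomc was -0.71 ± 0.22 (95% interval -1.17 to -0.25), with limma adjusted p = 0.108, so it did not pass. Adjusted p ran from 0.0473 to 0.24 over 23 alternatives. It passed with DESeq2 (-0.72, adjusted p = 0.0473) and without sham ozone 17 (-0.84, limma adjusted p = 0.0489). In ozone alone the difference was -0.86 ± 0.31 (limma adjusted p = 0.223) and in air -0.56 ± 0.31 (0.915). The interaction was -0.30 ± 0.43 (0.9997), so a difference between the exposures was not detectable. Without the liver-rich libraries the ADREX difference was -0.70 (adjusted p = 0.108).

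Pomc is also the main product of pituitary corticotrophs and melanotrophs, so pituitary markers were read beside it. All 12 listed markers are in the table. They summed to 18.7 to 37.7 RPM in hypothalamus sham air, 26.0 to 39.6 in sham ozone, 23.2 to 47.4 in ADREX air and 16.04 to 32.6 in ADREX ozone. Prl was at 0 in 15 of 16 hypothalamus libraries, Gh1 in 14, Pou1f1 in 12 and Pitx1 in 11, while Cga ranged from 1.88 to 207 normalized counts and Tbx19 from 17.97 to 61.8. The pituitary sums overlapped between ADREX and sham in both exposures. Marker sums of other cell types and of the region were read beside Pomc too, and were not tested between groups. In ADREX against sham, oligodendrocyte markers summed to 17068 to 18383 against 14384 to 15859 RPM in air, without overlap, and to 17051 to 20627 against 15289 to 17165 in ozone. Astrocyte markers summed to 1316 to 1652 against 1216 to 1384 in air, and to 1586 to 1844 against 1188 to 1578 in ozone, without overlap in ozone. Hypothalamus region markers summed to 409 to 573 against 474 to 543 in air and to 410 to 435 against 364 to 527 in ozone, overlapping in both. Microglia markers summed to 134.21 to 151 against 118 to 134.23 in air, overlapping. In ozone they summed to 134 to 155 against 110 to 131, without overlap. Neuron and endothelial sums overlapped in both exposures. Over all single genes, these groups did not overlap for 5.11% in air and 6.64% in ozone. The part of these cell types and of pituitary tissue in the Pomc level was not tested.

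In the brainstem, Pomc was too low for the main test. Its libraries held 3.23, 0, 0 and 3.82 normalized counts in sham air and 3.27, 0.726, 3.29 and 0 in sham ozone. They held 4.55, 9.11, 6.82 and 2.16 in ADREX air and 4.98, 11.8, 4.38 and 3.19 in ADREX ozone. ADREX libraries tended to the higher end, but the groups overlapped, and without the filter limma gave 1.48 for ADREX against sham with adjusted p = 0.171. The ADREX effect on Pomc differed between the tissues by -2.19 ± 0.52 (hypothalamus minus brainstem), which did not pass with limma over 32 libraries (adjusted p = 0.443). It passed with DESeq2 (-2.44, adjusted p = 0.0219), the only 1 of 40 alternatives to call it. No member was called in either difference between the tissues, of 8 tested, and 0% of all genes were in each. An unadjusted p under 0.05 was found for 1018 genes for the ADREX effect and 416 for the ozone effect in sham rats, of which Pomc was the only member, in the former. edgeR called 0 and 0 genes, and DESeq2 7 and 2.

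Crh, the releasing peptide of the axis, ranged from 11.2 to 34.0 normalized counts over the hypothalamus libraries, with no call. The libraries had 14.4, 17.3, 27.3 and 24.1 in sham air and 24.6, 15.7, 21.1 and 11.2 in sham ozone. They had 27.5, 24.1, 25.1 and 21.7 in ADREX air and 16.9, 19.8, 17.5 and 34.0 in ADREX ozone. The means were 20.8 ± 5.94, 18.2 ± 5.92, 24.6 ± 2.39 and 22.04 ± 8.07, and all groups overlapped. The ADREX difference was 0.27 ± 0.20 (95% interval -0.15 to 0.69, limma adjusted p = 0.582) and the ozone difference in sham rats -0.20 ± 0.28 (-0.80 to 0.40, 0.805). In the brainstem the group means of Crh were 44.6 to 52.1, with an ADREX difference of 0.03 ± 0.20 (adjusted p = 0.975).

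Crhbp in the hypothalamus had its lowest group in ADREX ozone. Those libraries had 15.96, 19.8, 8.75 and 8.21 normalized counts, and the sham ozone libraries 26.5, 11.8, 22.97 and 34.5. The means were 13.2 ± 5.64 and 23.9 ± 9.44, and the groups overlapped through sham ozone 18, at 11.8, which is 1 of the liver-rich libraries. The difference was -0.81 ± 0.35 (95% interval -1.56 to -0.06) and did not pass with limma (adjusted p = 0.368). Without sham ozone 18 the difference was -1.10 and still did not pass (limma adjusted p = 0.0794). Sham air stood at 22.7 ± 6.57 and ADREX air at 20.8 ± 7.18. In the brainstem the group means of Crhbp were 37.3 to 48.4.

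Vasopressin and oxytocin mRNA showed no treatment difference beyond the spread of the libraries. Avp in the hypothalamus had 326, 228, 581 and 579.6 normalized counts in sham air and 363, 189, 483 and 422 in sham ozone. It had 394, 373, 349 and 274 in ADREX air and 524, 332, 291 and 426 in ADREX ozone. The ADREX difference was -0.03 ± 0.22 (95% interval -0.48 to 0.43, limma adjusted p = 0.971), so a change of 1 log2 unit in either direction lay outside the interval. Without the liver-rich libraries it was -0.25 (adjusted p = 0.366). Oxt had 278, 259.7, 572 and 399 in sham air and 325, 119.7, 497 and 379.8 in sham ozone. It had 327, 353, 333 and 166 in ADREX air and 325, 302, 221 and 196 in ADREX ozone. Its group means, 377 ± 144, 331 ± 158, 295 ± 86.5 and 261 ± 62.2, went down in that order, but the ADREX difference, -0.27 ± 0.26, did not pass (-0.82 to 0.28, limma adjusted p = 0.688). Without the liver-rich libraries it was -0.43 (adjusted p = 0.14), and in ozone alone it went from -0.20 (0.889) to -0.63 (0.123). The ozone difference of Oxt in sham rats went from -0.29 ± 0.37 to -0.01 without them, and neither passed.

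Among the receptors, the hypothalamus group means of Crhr1 were 40.1 to 48.3 normalized counts, of Crhr2 37.1 to 47.3, of Avpr1a 24.97 to 33.9 and of Oxtr 9.84 to 13.5. Of the receptors, Crhr1 was measured most tightly. Its ADREX difference was -0.13 ± 0.13 in the hypothalamus (95% interval -0.39 to 0.14) and -0.11 ± 0.09 in the brainstem (-0.31 to 0.09), with limma adjusted p of 0.702 and 0.769. Crhr2 in the hypothalamus had 43.5, 50.1, 55.1 and 40.6 in sham ozone and 33.8, 49.4, 31.3 and 34.0 in ADREX ozone, which overlap through ADREX ozone 82 (-0.36 ± 0.19, adjusted p = 0.498). In brainstem ADREX ozone all 4 libraries of Crhr2 lay between 10.5 and 10.6, below the sham ozone mean of 16.2 ± 4.58 but above its lowest library, at 9.44 (-0.52 ± 0.32, limma adjusted p = 0.628). These 4 levels rest on 17, 9, 12 and 10 reads, so their closeness is not read as precision. Oxtr had the widest interval among the hypothalamus receptors for ozone in sham rats, -0.79 to 1.26.

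The lists that accompany the members behaved alike in part. No gene of prohormone processing, of other ligands and receptors, of neuroendocrine transcription factors, of Avp and Crh regulation or of neighbouring peptides was called in any of the 12 contrasts. In these contrasts 0% to 2.44% of all genes were called, so the absence of calls in short lists is not read further. The corticosteroid list, chosen with responses to ozone in these samples known, was the exception. In ADREX against sham in ozone, 3 of 10 were lower in the brainstem (Fkbp5, Sgk1 and Per1) and 3 lower and 1 higher in the hypothalamus (Fkbp5, Tsc22d3 and Sgk1, and Nr3c1). Of all genes 2.44% and 2.24% were called there, in either direction. Fkbp5 changed by -2.66 ± 0.13 and -2.39 ± 0.14 there. Nr3c1 rose by 0.60 ± 0.13 (limma adjusted p = 0.0229), from 973 ± 172 to 1471 ± 183 normalized counts. That call was lost without any of sham ozone 17 (0.09), 19 (0.0916) or 20 (0.0716) or ADREX ozone 83 (0.0625) or 84 (0.068), and with these groups alone (0.0784), while the log2 change stayed between 0.52 and 0.60 in these settings.

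Avp and Oxt went together over the 16 hypothalamus libraries. With group means subtracted, Pearson's r of log2(value + 1) was 0.83 (permutation p = 0.00011, adjusted 0.00088 over 8 pairs, two-sided) and Spearman's rho 0.77 (permutation p = 0.00088, adjusted 0.00704). Without the 2 libraries farthest from the median of Avp, r was 0.73. The 3 liver-rich hypothalamus libraries hold the 3 lowest Avp values, at 189 to 274 against 291 to 581 in the other 13, and Oxt values of 119.7 to 259.7 against 196 to 572. Without them r was 0.66 (permutation p = 0.0144, adjusted 0.115), and 0.42 after leaving out a further 2. The relation therefore rests in part on these libraries, in which Avpr1a stood at 32.4 to 54.3 against 19.6 to 34.8. The part of the liver transcripts in the relation was not tested.

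**Figure D4:**
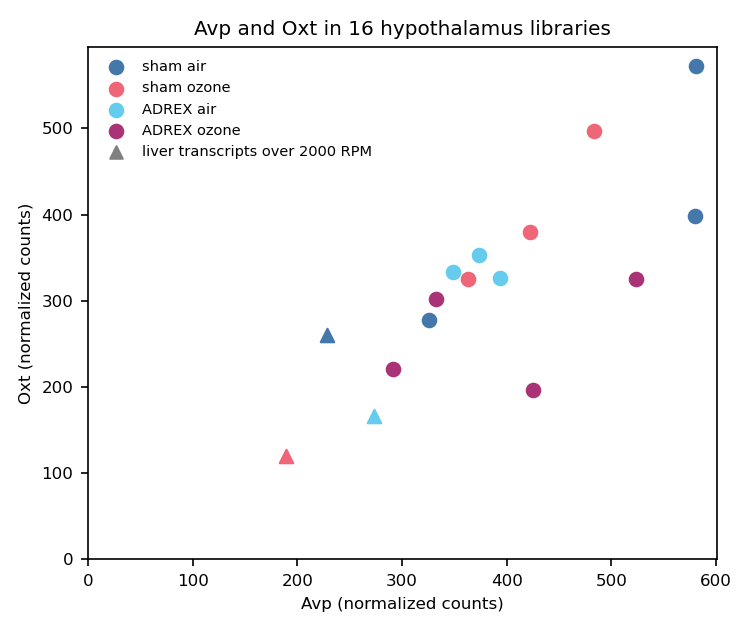
Normalized counts of Oxt (vertical axis) against Avp (horizontal axis) in the 16 hypothalamus libraries, coloured by treatment. Triangles are the 3 libraries with liver transcripts over 2000 RPM. The triangles hold the 3 lowest Avp values, 189 to 274, and the treatments are mixed along the trend.

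The ratio of Avp to Oxt counts ranged from 0.878 to 2.17 over the hypothalamus libraries, with a mean of 1.28 ± 0.34. It was 1.13 ± 0.25 in sham air, 1.20 ± 0.27 in sham ozone, 1.24 ± 0.28 in ADREX air and 1.55 ± 0.47 in ADREX ozone, with overlapping ranges. The other 7 pairs examined did not pass. They were Crh with Avp (r = 0.40), with Oxt (0.23) and with Crhbp (-0.10), Pomc with Agrp (0.27) and with Avp (0.40), and Sim1 with Avp (-0.06) and with Oxt (-0.40), with adjusted permutation p of r from 0.249 to 0.825 and of rho from 0.289 to 0.889. Without the 2 libraries farthest from the median of Crh, r was 0.59 with Avp, 0.55 with Oxt and 0.29 with Crhbp. Leaving out the 2 farthest for Pomc gave 0.24 with Agrp and 0.50 with Avp. The same step gave 0.28 for Avp with Sim1 and -0.30 for Oxt with Sim1. These values were not tested. Over the 16 libraries, levels of Crh thus showed no detectable relation to those of its binding protein, nor of Avp or Oxt to their developmental factor Sim1, but several r values depended on 2 libraries.

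The genes whose pattern was most like that of a member were sought among 10422 genes over the 16 hypothalamus libraries, by Pearson's r of log2(value + 1), as a description. For Crh they were Fgf11 (0.76), Ube2b (0.76) and Jak3 (0.75), and for Avp they were Dut (0.81), Oxt (0.80) and Far2 (0.78). Oxt was thus second of 10422 for Avp. For Oxt the first were Itih5 (0.89) and Tacc2 (0.89), and for Pomc they were Apex1 (0.90), Cd81 (0.87) and Ndrg2 (0.87). All genes were read in the same 16 libraries, so differences of depth or treatment between libraries enter every correlation, and the highest of so many correlations are large by selection.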

How the data were processed

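RNA of 32 libraries was sequenced after mRNA selection on an Illumina NextSeq, per the labels' protocols. The authors deposited a signal, normalized counts per gene for 22587 genes. Partek, DESeq2 and the build rn6 are named without role or version, per the submitters' processing notes, while aligner, annotation and use of strand were not given in the sources used here. In each column values were whole multiples of 1 step, which gave whole reads for 100% of values (within 0.001). Genes were matched by symbol.

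The main test was limma 3.58.1 (R 4.3.3) with a trended prior on log2(value + 1), for genes with a mean of 10 or more, adjusted by Benjamini-Hochberg over all genes tested. Each tissue was fitted on 16 libraries and 4 group means, and contrasts between tissues on 32 libraries and 8 group means. Relations used permutation tests with 100000 resamples drawn with numpy 2.4.6, and ranks from scipy 1.17.1. Values with group means subtracted were permuted over all libraries, so these p-values take no account of the 4 group means estimated. The script was tested on simulated data. The alternatives tried were a pseudocount of 0.5 or 5, a minimum mean of 50 or none, quantile normalization, edgeR 4.0.16 and DESeq2 1.42.0 on recovered reads, leaving out the libraries with over 2000 RPM of liver transcripts, the compared groups alone, a replicate block, and each library left out. DESeq2 and edgeR used their own scaling.

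The members and lists were chosen with earlier results of these data known. All 10 members are named whatever their p, with up to 4 called genes per list and contrast and a fixed panel, of which some are left out for length. Promoters were matched by symbol for 9 of 10 members (RefSeq, GRCr8), not for Crh. A few named-gene results are not reported here.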

Additional observations from a re-analysis of the deposited data

Results flagged for a closer look

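A library was singled out when its gap to the nearest other of its group of 4 was a larger part of the group's range than Dixon's 95% critical value. Of 55 groups of the members tested in this way 7 met it, where chance gives about 1 in 20, or 2.75. All values are normalized counts.

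Crh stood at 19.9 in brainstem ADREX ozone 81, the deepest library with 12.4 M reads, with the next at 53.5. Crh stood at 34.0 in hypothalamus ADREX ozone 84, with the next at 19.8. Crhbp stood at 43.5 in brainstem sham ozone 18, with the next at 37.1. Crhr2 stood at 49.4 in hypothalamus ADREX ozone 82, with the next at 34.0. Avpr1a stood at 54.3 in hypothalamus ADREX air 68, with the next at 25.1, and Oxt stood at 166 in the same library, with the next at 327. Oxtr stood at 18.6 in hypothalamus sham ozone 18, with the next at 10.1. Of these 7, 4 belong to libraries rich in liver transcripts (brainstem and hypothalamus sham ozone 18 and hypothalamus ADREX air 68), and the part of those transcripts was not tested.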

How the results depend on the processing

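Of the treatment tests of the members, 3 of 2069 under alternatives were called, and all were Pomc. DESeq2 called 1 member for ADREX against sham in the hypothalamus (Pomc, -0.72, adjusted p = 0.0473) and 1 for the difference between tissues of the ADREX effect (Pomc, -2.44, adjusted p = 0.0219). With each library left out in turn the count for ADREX against sham in the hypothalamus ran from 0 to 1, the 1 being Pomc without sham ozone 17. Among changes never called, 143 of 2106 had the other sign. Between the tissues, 3 members (Avp, Crhr1 and Oxt) were called with a mean of 50 or more, against 7, since fewer were tested. The correlation of Avp with Oxt fell to 0.66 without the liver-rich libraries and no longer passed.

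Counts over all genes moved more. They were 73 to 237 (141 in the main test) for ozone in sham brainstem, 115 to 412 (230) in sham hypothalamus, 148 to 489 (352) and 161 to 591 (325) for ADREX in ozone, 136 to 373 (228) and 187 to 741 (280) for ADREX over both exposures, 0 to 16 (0) and 0 to 15 (2) for ADREX in air, and 18 to 75 (29) and 15 to 53 (20) for the interaction, each brainstem first. The cause was not tested. Low counts limit Ucn, Oxtr and, in the brainstem, Avp, Oxt and Pomc.

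The tissues share replicate numbers, and no source says that a number marks a rat. Deviations of same-numbered libraries correlated from -0.53 to 0.61 (median 0.03, 7 of 16 over 0.1, and 4 of 16 best with their own number), so the numbers were not used as pairs. With the replicate block (consensus correlation -0.037) limma called 7 members between the tissues and 0 and 0 for the differences of the ADREX and ozone effects, as without it.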

Other observations

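Hypothalamus and brainstem libraries with the numbers 83 and 84 were both low for Crhbp, a pattern chosen after the values were seen. In ADREX ozone they had 8.75 and 8.21 normalized counts in the hypothalamus against 15.96 and 19.8 for numbers 81 and 82, and 26.3 and 27.6 in the brainstem against 42.4 and 53.1. Whether these libraries came from the same rats is not stated in the labels.

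Prl, the prolactin gene of the pituitary, was seen in 2 of 16 brainstem libraries, at up to 8.77 normalized counts, and Gh1, the growth hormone gene, in 3, at up to 42.7.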
